A study of Mus musculus with 18 samples.

Results

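The genes described here drive cell division: 41 cell cycle and DNA replication genes, chosen by name as 19 genes of S phase and its entry and 22 genes of the G2 phase and mitosis. The choice used no measured value, though earlier results of these data were known when it was made. On the arrays, 40 of the 41 were matched to a probe set with a single gene symbol (19 S phase and 21 mitosis genes) among 19752 genes so named. The cyclin gene Ccnb1 is unnamed in the gene table used and has no value here. Gene expression was measured as array intensity on 18 Affymetrix arrays of mouse dendritic and related myeloid cells, 9 from mice called BRAF here and 9 from their WT littermates. Each BRAF mouse carried a floxed BRAFV600E allele, an activated form of the MAP kinase pathway kinase BRAF, together with CD11c-Cre, a recombinase expressed from the promoter of the dendritic cell integrin gene Itgax. The WT mice carried the same floxed allele without Cre, so the genotypes differ by Cre as well as by the recombined allele. All mice and cultures were otherwise untreated.

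Each genotype gave 4 populations. Bone marrow derived dendritic cells (BMDC) were grown from the femur marrow of mice 5 weeks old and sorted as live cells with CD11c and CD11b on their surface, with 3 arrays per genotype. From liver, CD11b+ cells, and from lung, CD11b+ and CD103+ cells were sorted from mice 14 weeks old, with 2 arrays per genotype and population. The labels name no further gate for the organ cells. Replicates carry numbers, but the labels do not state whether each is another mouse or culture. The p-values therefore reflect only how far these samples differ, which could be technical variation. In such bulk samples, fewer cells of a type and less RNA per cell cannot be told apart.

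The surface markers followed the labels. Itgae, which encodes CD103, read from 10.60 to 12.18 on the log2 scale on the 4 lung CD103+ arrays and at most 7.65 on the other 14. Itgam, which encodes CD11b, read from 6.87 to 8.39 on those 4 arrays and from 9.32 to 11.92 elsewhere. Braf itself differed between genotypes by -0.12 to 0.32 without a call, but an array probe set does not tell the mutant from the normal transcript. Of the 18 arrays, 2 had a compressed range of values: BRAF BMDC replicate 2, with an interquartile range of 1.9 log2 units, and WT liver CD11b+ replicate 3, with 1.92, against 2.41 to 2.99 on the rest. BRAF liver CD11b+ replicate 3 and BRAF lung CD103+ replicate 1 stood apart from their partners in the genes described here. Results that rest on these arrays are given with and without them where the value turns or moves far.

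A cell that divides copies its DNA in S phase and separates the copies in mitosis. Entry into S phase is driven by E-type cyclins and by E2F transcription factors, which activate the genes of the replication machinery: the MCM ring that unwinds DNA, its helpers Cdc45 and GINS, the loading factor Cdc6, primase, polymerase epsilon, the sliding clamp PCNA, and the enzymes that make deoxynucleotides. Later, B-Myb with the MuvB complex and FoxM1 activate the mitotic genes, which include cyclins A and B, Cdk1, the Aurora and Polo kinases, spindle motors, kinetochore proteins and the checkpoint kinases. Fully differentiated dendritic cells are mostly out of cycle, while their marrow precursors divide.

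The promoters of the members were searched for motifs of these regulators. RefSeq windows (GRCm38.p6, from 250 bases before to 50 after the start) were listed for 32 of the 41 members, as 16 S phase and 17 mitosis windows, since Mcm7 has 2. Motifs were searched on both strands as exact letters. The element TTTGAA, the core of the cell cycle homology region through which MuvB binds, was present in 12 of 17 mitosis windows, in 2 of 16 S phase windows and in 17.9% of all 32851 windows. The CCAAT box, bound by NF-Y, was present in 15 of 17 mitosis windows, 11 of 16 S phase windows and 37.4% of all windows. Both together were present in 12 mitosis windows, 2 S phase windows and 6.95% of all. The E2F type motifs TTTGGCG or TTTCCCG were present in 5 S phase windows, 2 mitosis windows and 4.84% of all. These matches describe the letters only.

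The stretches directly before the start sites of Rrm1 and Cdc45 (S phase) and of Bub1 and Cenpe (mitosis) are shown because, among members with a motif there, these had the smallest p in each phase in the comparison of BMDC with organ cells described further on. Each runs 5′ to 3′ on the strand of the gene over the 250 bases before the start, with every motif match in capitals (ATTGG is CCAAT on the other strand). Rrm1 lies at chr7:102441445-102441694 on the plus strand, Cdc45 at chr16:18811973-18812222 on the minus strand, Bub1 at chr2:127831860-127832109 on the minus strand and Cenpe at chr3:135212313-135212562 on the plus strand.
Rrm1: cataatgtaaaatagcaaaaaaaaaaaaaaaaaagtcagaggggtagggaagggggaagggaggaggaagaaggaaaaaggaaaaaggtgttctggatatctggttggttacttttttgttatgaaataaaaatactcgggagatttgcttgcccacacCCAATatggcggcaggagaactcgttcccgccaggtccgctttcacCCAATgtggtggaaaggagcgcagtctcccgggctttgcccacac
Cdc45: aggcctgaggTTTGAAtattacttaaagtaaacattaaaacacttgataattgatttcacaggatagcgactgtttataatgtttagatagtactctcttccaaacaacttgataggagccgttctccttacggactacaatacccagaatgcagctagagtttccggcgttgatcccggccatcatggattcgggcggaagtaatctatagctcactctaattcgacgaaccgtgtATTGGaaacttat
Bub1: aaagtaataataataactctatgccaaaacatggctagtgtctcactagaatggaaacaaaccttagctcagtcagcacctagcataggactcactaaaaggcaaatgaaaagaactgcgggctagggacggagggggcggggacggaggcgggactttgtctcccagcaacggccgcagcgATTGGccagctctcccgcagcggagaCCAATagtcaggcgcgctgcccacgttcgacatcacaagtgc
Cenpe: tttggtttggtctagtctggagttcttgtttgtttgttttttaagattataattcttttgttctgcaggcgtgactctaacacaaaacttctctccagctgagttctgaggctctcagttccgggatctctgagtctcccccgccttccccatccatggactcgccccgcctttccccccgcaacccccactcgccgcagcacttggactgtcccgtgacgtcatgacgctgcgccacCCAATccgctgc

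The 120 bases before the start of Mcm6, Cdk1, Cdc20 and Top2a are shown as examples of how the motifs sit together, and were chosen after the matches were seen. Mcm6 (chr1:128359706-128359825, minus strand) has TTTGGCG at 110 and 47 bases before the start with inverted CCAAT boxes at 57 and 14. Cdk1 (chr10:69352913-69353032, minus strand), Cdc20 (chr4:118437344-118437463, minus strand) and Top2a (chr11:99024190-99024309, minus strand) each have TTTGAA, on either strand, within 23 bases of the start and CCAAT boxes near it. No match overlaps another in these sequences.
Mcm6: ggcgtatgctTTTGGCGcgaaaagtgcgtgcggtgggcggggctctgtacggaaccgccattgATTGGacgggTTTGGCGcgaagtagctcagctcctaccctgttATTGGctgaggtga
Cdk1: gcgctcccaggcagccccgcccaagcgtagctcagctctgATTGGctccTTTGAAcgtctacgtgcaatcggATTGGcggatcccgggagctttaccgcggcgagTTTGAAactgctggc
Cdc20: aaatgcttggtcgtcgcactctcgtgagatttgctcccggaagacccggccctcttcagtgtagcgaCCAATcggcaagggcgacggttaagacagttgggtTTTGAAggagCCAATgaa
Top2a: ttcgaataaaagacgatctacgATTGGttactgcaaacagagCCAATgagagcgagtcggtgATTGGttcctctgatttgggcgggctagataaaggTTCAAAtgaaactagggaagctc

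The members were averaged by phase to compare arrays. The mean of the 19 S phase genes was 9.01, 9.01 and 9 on the 3 WT BMDC arrays and 8.47, 8 and 8.78 on BRAF BMDC replicates 1 to 3. The mean of the 21 mitosis genes was 9.73, 9.68 and 9.56 on WT and 9.35, 8.85 and 9.50 on BRAF BMDC. All 3 WT BMDC arrays therefore lay above all 3 BRAF BMDC arrays in both phases. In WT organ cells, S phase means ran from 7.43 on liver CD11b+ replicate 3 to 8.17 on lung CD103+ replicate 3, and mitosis means from 7.60 to 8.59. In BRAF organ cells, 2 arrays stood at opposite ends. Liver CD11b+ replicate 3 had means of 9.54 and 9.95, while lung CD103+ replicate 1 had means of 7.08 and 7.21.

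**Figure D1:**
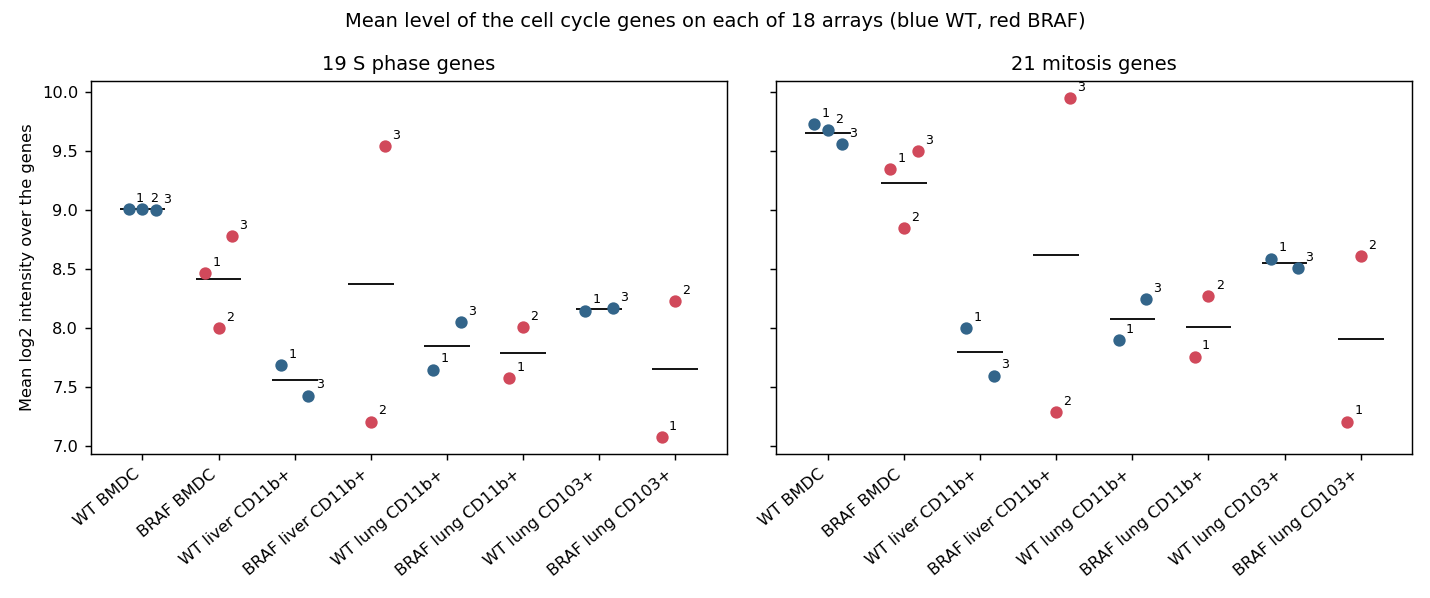
Each point is the mean log2 intensity of the 19 S phase genes (left) or the 21 mitosis genes (right) on one array, labelled by replicate number, with WT in blue and BRAF in red and a line at the group mean. BRAF liver CD11b+ replicate 3 stands at 9.54 and 9.95 while its partner stands at 7.21 and 7.29. The S phase mean of BRAF BMDC replicate 2, at 8, lies within the range of the organ arrays.

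All 40 genes passed the filter on low values. The widest ranges over the 18 arrays were in Plk1, the Polo-like kinase of mitosis, from 6.64 to 10.53, and in Rrm1, the large subunit of ribonucleotide reductase, from 7.27 to 11.02. The narrowest was in Pcna, from 10.77 to 12.08. Spans for all genes are differences of log2 intensity and are not compared with absolute levels, since probe sets differ in response.

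**Figure D2:**
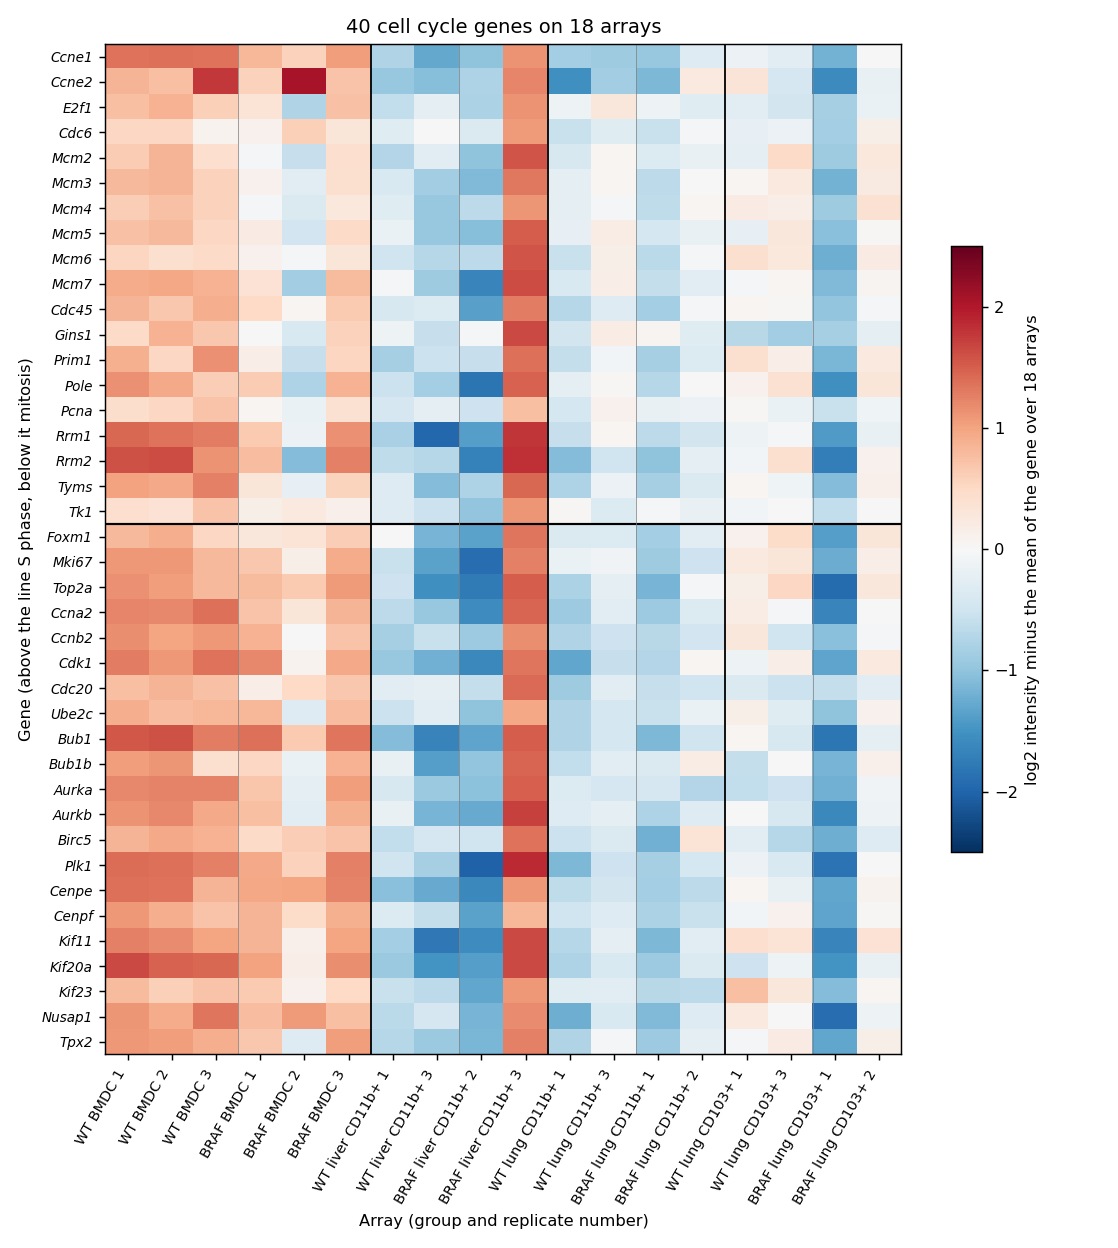
Rows are the 40 genes (S phase above the line, mitosis below), columns the 18 arrays, and the colour is log2 intensity minus the gene's mean over all arrays, red above and blue below. BRAF liver CD11b+ replicate 3 is red in every row, BRAF lung CD103+ replicate 1 is blue in every row, and the WT BMDC columns are red in every row. The BRAF BMDC replicate 2 column is red in 21 of 40 rows, and in 5 of the 19 S phase rows.

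In BMDC, the question was whether active BRAF in dendritic cells changes their cell cycle genes. None of the 40 was called (limma, Benjamini-Hochberg adjusted p under 0.05 over all 15365 genes tested), beside 0.521% of all genes, and 0 had an unadjusted p under 0.05, beside 6.65% of all genes. With array weights, an alternative fit, 2 were called lower, Mcm4 and Tyms, beside 10.8% of all genes called in either direction. All 40 fitted differences were nonetheless negative, with a median of -0.64 log2 for S phase, -0.41 for mitosis and 0 over all genes tested. For 20 genes, 12 of S phase and 8 of mitosis, every BRAF array lay below every WT array, which was so for 9.08% of all genes tested. No member lay wholly above, beside 6.99% of all genes.

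The S phase genes with this separation were all 6 MCM ring genes Mcm2 to Mcm7, the S phase cyclin gene Ccne1, Cdc45, Pcna, Rrm1, Tyms and Tk1. Tyms encodes thymidylate synthase, which makes the thymidine nucleotide; it read 9, 8.94 and 9.26 on WT replicates 1 to 3 and 8.29, 7.80 and 8.56 on BRAF. Its difference was -0.85 ± 0.45 (SE, n = 3 per genotype, 95% interval -1.81 to 0.11, limma adjusted p = 0.737). This SE pools the spread of all groups, not of BMDC alone. The SD of Tyms was 0.17 on WT and 0.38 on BRAF BMDC. It was 1.56 in BRAF liver CD11b+ cells and 0.86 in BRAF lung CD103+ cells. These larger SDs enter the SE used for BMDC. A fit of the BMDC groups alone also called 0 members, beside 0.286% of all genes. Mcm4, a subunit of the MCM ring, read 9.07, 9.18 and 9.04 on WT and 8.41, 8.09 and 8.71 on BRAF. The gap between the lowest WT and the highest BRAF array of Mcm4 was wider than the spread among the WT arrays. Its difference was -0.69 ± 0.39 (limma adjusted p = 0.737). Prim1, the catalytic subunit of primase, read 8.14, 7.77 and 8.39 on WT and 7.4, 6.67 and 7.79 on BRAF, where the groups overlapped.

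The standard S phase markers showed the same order. Mcm2 read 8.82, 9.03 and 8.6 on WT and 8.16, 7.61 and 8.6 on BRAF, so its separation was smaller than the printed digits. Pcna, the sliding clamp, read 11.76, 11.84 and 12.03 on WT and 11.37, 11.15 and 11.70 on BRAF. Rrm2, the small subunit of ribonucleotide reductase, read 10.15, 10.18 and 9.68 on WT and 9.32, 7.47 and 9.81 on BRAF. For Rrm2 the groups overlapped, and its difference of -1.14 came largely from BRAF replicate 2. Ccne2 and Cdc6 went otherwise on that array: Ccne2, the second cyclin E gene, read 9.73 on BRAF replicate 2 against 8.42 to 9.43 on WT, and Cdc6, which loads the MCM ring, read 7.15 against 6.63 to 7.06.

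The mitosis genes with full separation were Ccna2, Ccnb2, Cdc20, Aurka, Aurkb, Birc5, Plk1 and Kif20a. For Plk1 the WT and BRAF arrays of replicate 3 both read 9.92, a separation smaller than the printed digits. Aurka, the spindle pole kinase, read 9.31, 9.35 and 9.34 on WT and 8.80, 7.87 and 9.15 on BRAF, a difference of -0.73 ± 0.49 (limma adjusted p = 0.737). Kif20a, a motor of the central spindle, read 9.74, 9.58 and 9.54 on WT and 9.11, 8.26 and 9.25 on BRAF. Ccnb2, a B-type cyclin gene, read 11.82, 11.63 and 11.73 on WT and 11.53, 10.67 and 11.37 on BRAF. In these 3 genes BRAF replicate 2 was the lowest array and replicates 1 and 3 lay much nearer to WT. The division marker Mki67 read 10.91, 10.91 and 10.64 on WT and 10.51, 9.98 and 10.75 on BRAF, and Top2a, the topoisomerase that untangles chromosomes, read 10.11, 10.01 and 9.78 against 9.76, 9.61 and 10.02. Both overlapped between genotypes.

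BRAF BMDC replicate 2, the array with the narrow spread of values, was the lowest of the 6 BMDC arrays for 32 of the 40 genes. The mean of the 17 dendritic cell markers was 8.64 on that array and 9.22 to 9.31 on the other 5, and that of the 12 T and NK cell markers 5.92 against 5.11 to 5.25. The erythroid and epithelial lists were also highest there, at 6.21 and 6.13. That array's 30th percentile was 6.11, against 5.60 to 5.70 on the other 5 BMDC arrays. The T and NK cell mean thus lay below it, and the erythroid and epithelial means just above it. Over all BMDC arrays, 1 of 17 dendritic cell markers and 1 of 13 neutrophil markers were called lower in BRAF. Of all genes, 0.521% were called in either direction. The part of these markers in the BMDC result was not tested. Against the WT mean, the median member stood at -0.40 on BRAF replicate 1, -1 on replicate 2 and -0.17 on replicate 3, with 0, 2 and 4 of 40 members above it. Without replicate 2 the median difference was -0.29, all 40 genes stayed uncalled, and 22 had both remaining BRAF arrays below all WT arrays, beside 15% of all genes. Quantile normalization gave 16 separated genes, beside 9.56%. The other genes of the cycle ran alike: all 44 further S phase genes had a negative difference (median -0.42) and 55 of 59 further mitosis genes (median -0.36). None of them was called, beside 0.521% of all genes. At an unadjusted p under 0.05 (limma) the counts were 2 of 44 and 1 of 59, beside 6.65% of all genes, so they did not exceed the background.

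**Figure D3:**
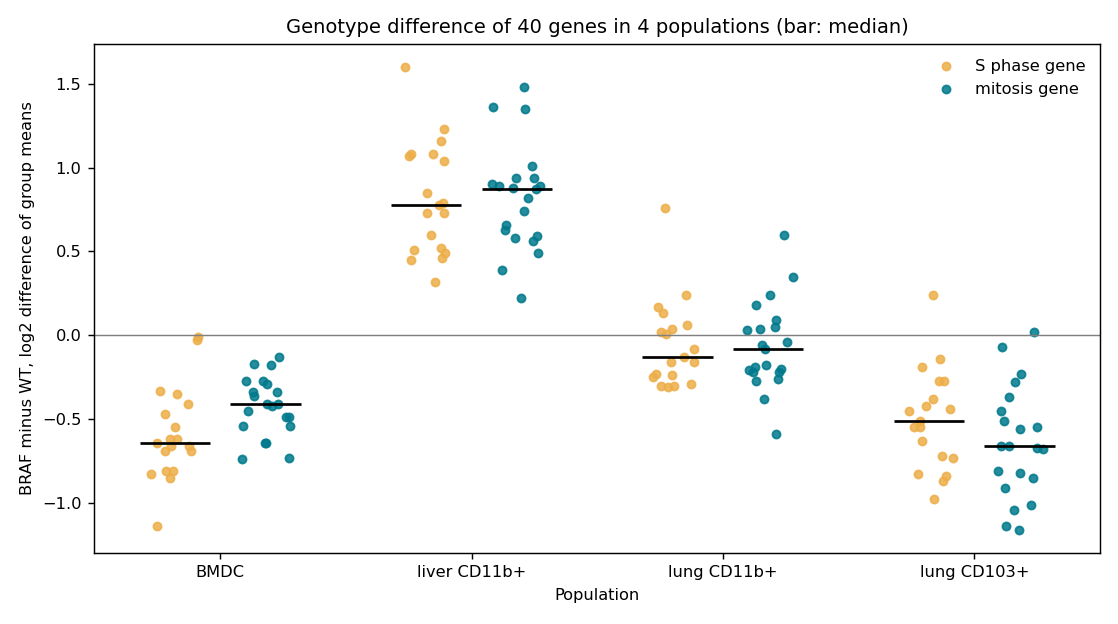
Each point is one gene's BRAF minus WT difference of group means in log2, for S phase genes (yellow) and mitosis genes (teal) in each population, with the median as a black bar. All points lie below 0 in BMDC, all above 0 in liver CD11b+ cells and on both sides of 0 in lung CD11b+ cells; none was called.

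In liver CD11b+ cells, all 40 fitted differences were positive, with a median of 0.78 log2 for S phase, 0.87 for mitosis and 0.08 over all genes, and none was called (limma, beside 0.215% of all genes). An unadjusted p under 0.05 was found for 3 S phase genes and 1 mitosis gene, 4 of 40, beside 14.1% of all genes, so the members did not exceed the background. The 2 BRAF arrays disagreed in direction. Against the mean of the 2 WT arrays, BRAF replicate 3 was higher in all 40 genes (median 2.09, from 1.09 for Pcna to 3.18 for Rrm1), while replicate 2 was lower in 33 of 40 (median -0.42, from -1.35 for Plk1 to 0.31 for Gins1). The median difference was -0.42 without replicate 3, with 0 called, and 2.09 without replicate 2, with 23 called higher, beside 2.33% of all genes called in either direction. Without WT replicate 3, the array of narrow range, it was 0.66, with 0 called.

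Rrm1 read 8.42 and 7.27 on WT liver replicates 1 and 3, and 7.86 and 11.02 on BRAF replicates 2 and 3. Its fitted difference was 1.60 ± 0.73 (SE, n = 2 per genotype; 95% interval 0.04 to 3.15; limma adjusted p = 0.344), and one BRAF array lay inside the WT range. Gins1, a subunit of the GINS helicase helper, read 6.47 and 6.02 on WT and 6.55 and 8.25 on BRAF. It was one of 2 members, with Ccne2, whose BRAF arrays both lay above both WT arrays, beside 22.7% of all genes, and its difference was 1.16 ± 0.45 (limma adjusted p = 0.282). Ccne1 read 7.4 and 6.87 on WT and 7.15 and 9.27 on BRAF. Among the mitosis genes, Bub1, the spindle checkpoint kinase, read 7.21 and 6.63 on WT and 6.97 and 9.82 on BRAF (1.48 ± 0.66, limma adjusted p = 0.338). Kif20a read 7.17 and 6.61 on WT and 6.72 and 9.75 on BRAF. In Rrm1, Ccne1, Bub1 and Kif20a, BRAF replicate 2 lay within the WT range and replicate 3 far above it. Birc5, which encodes survivin, read 6.80 and 6.99 against 6.91 and 8.76.

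The proliferation markers repeated this. Mki67 read 9.27 and 8.48 on WT, 7.92 on BRAF replicate 2 and 11.09 on replicate 3, so the BRAF arrays were the lowest and the highest of the 4. Top2a read 8.44 and 7.43 on WT and 7.19 and 10.47 on BRAF. Mcm2 read 7.46 and 7.93 on WT and 7.19 and 9.76 on BRAF, Pcna 10.90 and 11.09 against 10.80 and 12.08, and Rrm2 7.92 and 7.84 against 6.86 and 10.37. Liver replicate 3 of BRAF was the highest of the 12 organ arrays in all 40 genes and the highest of all 18 arrays in 33.

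That array also read high in primary granule genes, part of the neutrophil and granulocyte precursor list. The primary granule genes Mpo (myeloperoxidase), Elane (neutrophil elastase), Prtn3 (proteinase 3) and Ctsg (cathepsin G) read 12.07, 11.14, 11.97 and 12.12 there. On the other 17 arrays they read at most 7.91, 7.13, 6.87 and 6.84. The mean of all 13 neutrophil and granulocyte precursor markers was 8.07 on that array and 6.53 on its partner. It was 5.99 and 6.40 on the WT liver arrays, and from 5.60 to 6.60 over all other groups. Above the array's 30th percentile lay 9 of the 13 on each WT liver array, 11 on BRAF replicate 2 and 9 on BRAF replicate 3. Of the genes of later neutrophil stages, Ltf read 5.50 and Ly6g 5.60, both under that array's 30th percentile of 5.69, as were Retnlg and Cxcr2. Camp read 6.38 and Ngp 7.12, and Lcn2 read 10.40 against 9.54 on its partner. The mean of the 8 erythroid markers was 6.19 there and 6.21 on its partner. The part of these marker genes in the liver result was not tested.

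**Figure D4:**
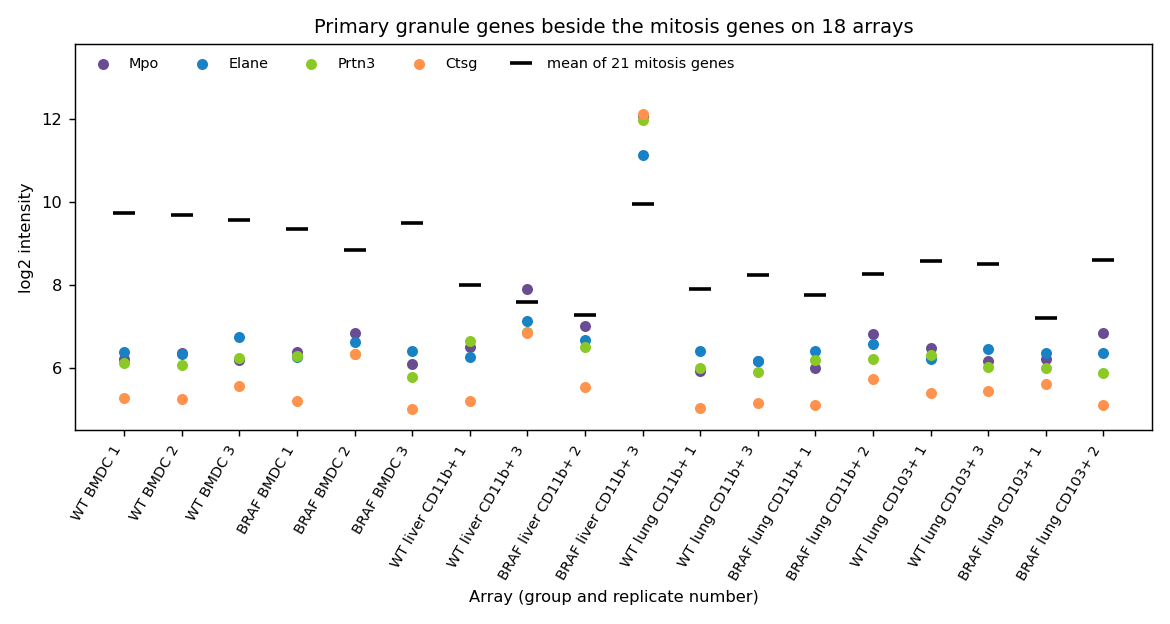
Points are the log2 intensity of Mpo, Elane, Prtn3 and Ctsg on each of the 18 arrays, and the black dash is the mean of the 21 mitosis genes on the same array; levels of different genes are not compared with each other. On BRAF liver CD11b+ replicate 3 the 4 granule genes read from 11.14 to 12.12 and the mitosis mean is 9.95, the highest of all arrays, while on the other 17 arrays no granule gene exceeds 7.91.

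In lung CD11b+ cells the genotypes lay close together. The median difference was -0.13 for S phase, with 8 of 19 genes positive, and -0.08 for mitosis, with 8 of 21 positive. None was called (limma, beside 0.338% of all genes) and 0 had an unadjusted p under 0.05, beside 6.71%. Separation was no more frequent than in the background: 6 of 40 members had both BRAF arrays below both WT arrays (E2f1, Mki67, Aurkb, Cenpe, Cenpf and Kif23), beside 24.8% of all genes. Mki67 read 9.67 and 9.74 on WT replicates 1 and 3 and 8.94 and 9.30 on BRAF replicates 1 and 2, a difference of -0.59 ± 0.69 (95% interval -2.07 to 0.89). Kif23, a motor needed for the last step of division, read 8.90 and 8.94 on WT and 8.52 and 8.56 on BRAF. Both genes were lower on both BRAF arrays, by less than the fit could resolve. That fit pools the spread of all groups. The SD of Kif23 was 0.02 on WT and 0.03 on BRAF lung CD11b+ arrays, but 1.68 in BRAF liver CD11b+ cells. A fit of the lung CD11b+ groups alone also called 0 members, beside 0.482% of all genes.

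Ccne2 and Cdk1 were higher on average in BRAF, with overlapping groups. Ccne2 read 6.14 and 6.79 on WT and 6.54 and 7.91 on BRAF (0.76 ± 0.67, 95% interval -0.68 to 2.20), and Cdk1, the kinase that starts mitosis, read 7.76 and 8.49 on WT and 8.34 and 9.12 on BRAF. E2f1, one of the 6 separated genes, read 7.76 and 8.16 against 7.75 and 7.58. Mcm5 overlapped, at 8.45 and 8.85 against 8.22 and 8.48. BRAF replicate 1 had the lower phase means of its pair, at 7.58 and 7.76 against 8.01 and 8.27, as WT replicate 1 did, at 7.65 and 7.90 against 8.05 and 8.25. The spread within each genotype thus exceeded the difference between them.

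In lung CD103+ cells the median difference was -0.51 for S phase and -0.66 for mitosis, beside -0.08 for all genes. It was negative for 18 of 19 S phase and 20 of 21 mitosis genes, and none was called (limma, beside 0.0846% of all genes), with 0 at an unadjusted p under 0.05, beside 4.26%. One array decided the sign. BRAF replicate 1 lay below the WT mean in all 40 genes, with a median of -1.29, while BRAF replicate 2 lay above it in 25 of 40, with a median of 0.05. The median over members was 0.05 without replicate 1 and -1.29 without replicate 2, with 0 called either way.

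Kif23 read 9.97 and 9.49 on WT replicates 1 and 3 and 8.12 and 9.26 on BRAF replicates 1 and 2, a difference of -1.04 ± 0.53 (SE, n = 2 per genotype; 95% interval -2.16 to 0.09). Nusap1, a spindle microtubule protein, read 9.41 and 9.14 on WT and 7.25 and 9.03 on BRAF. Mcm6 read 9.31 and 9.18 on WT and 7.70 and 9.13 on BRAF. These 3, with Cdc45, Rrm1 and Mki67, were the 6 members whose BRAF arrays both lay below both WT arrays, beside 19.3% of all genes. No member lay wholly above, beside 9.16%. BRAF replicate 2 lay much nearer to WT than replicate 1 in Kif23, Nusap1 and Mcm6. Top2a read 9.11 and 9.49 on WT and 7.04 and 9.25 on BRAF. Prim1 read 7.65 and 7.41 against 6.11 and 7.49, and Ccne2 7.99 and 7.24 against 6.08 and 7.47.

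On BRAF lung CD103+ replicate 1, the mean of the 10 epithelial and hepatocyte markers was 8.62, against 7.25 on its partner and 6.74 to 7.72 on the WT arrays, with 9 of 10 above the array's 30th percentile. Scgb1a1, the club cell secretoglobin gene, read 12.74 there, 8.09 on its partner, and 11.04 and 8.18 on WT replicates 1 and 3. Alb, the albumin gene, read 10.98, 6.57, 7.80 and 5.94 on the same arrays. Macrophage markers had a mean of 9.13 on replicate 1, 8.23 on replicate 2 and 6.53 to 8.03 on WT. Dendritic cell markers had a mean of 10.23 and 10.62 on the BRAF and 10.65 to 10.80 on the WT arrays. The part of these other cells in the result was not tested.

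Lymphocyte markers also differed between the WT arrays. The mean of the T and NK cell markers was 7.12 on WT lung CD103+ replicate 1 and 5.34 on replicate 3, while the S phase means of these arrays were 8.15 and 8.17 and the mitosis means 8.59 and 8.51. Single members differed between these arrays in both directions: Ccnb2 read 10.94 and 10.16, and Mcm2 7.94 and 8.66. The part of lymphocyte RNA was not tested.

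Averaged over the 4 populations, the BRAF effect on the members had a median of -0.10 for S phase and -0.07 for mitosis, beside -0.01 for all genes. None was called (limma, beside 0.989% of all genes) and 0 had an unadjusted p under 0.05, beside 9.37%. The smallest p belonged to Kif23 (-0.30 ± 0.25). The test of whether the BRAF effect differed between populations also called none of the 40 (limma F test, beside 0.124% of all genes), and 0 had an unadjusted p under 0.05, beside 9.10%. Its smallest p values belonged to Gins1, Prim1 and Rrm1 (adjusted p = 0.558, 0.596 and 0.615) and, in mitosis, Bub1, Kif20a and Kif11 (adjusted p = 0.626, 0.646 and 0.676). BMDC and liver cells had effects of opposite sign in all 40 fitted means. The difference between these effects was called in none (limma, beside 0.137% of all genes), with 6 S phase and 2 mitosis genes at an unadjusted p under 0.05, 8 of 40 beside 18.5% of all genes. Its median was -1.40 and -1.21 for the 2 phases, and without BRAF liver replicate 3 the mitosis median was 0.05.

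The comparison that called the most members was between cultured and organ cells. BMDC, averaged over genotypes, exceeded the mean of the 3 organ populations in all 40 genes, with a median of 0.64 log2 for S phase and 1.22 for mitosis, beside 0.03 for all genes tested. Of the 40, 24 rose in BMDC (limma, adjusted p under 0.05), 5 of 19 S phase genes and 19 of 21 mitosis genes, and none fell, beside 11.6% of all genes called higher and 7.11% called lower. At an unadjusted p under 0.05 the counts were 14 and 21, beside 29.2% in either direction. Culture, age (5 against 14 weeks) and organ changed together, so their parts cannot be told apart.

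The S phase genes that rose were Ccne1, Ccne2, Rrm1, Tyms and Cdc45. Ccne1 read from 8.72 to 9.52 on the 6 BMDC arrays, and 9.51, 9.52 and 9.50 on those of WT. On 11 organ arrays it read from 6.87 to 8.13, and on BRAF liver replicate 3 it read 9.27. Its difference was 1.64 ± 0.25 (SE; 95% interval 1.10 to 2.18; limma adjusted p = 0.000271). Ccne2 rose by 1.68 ± 0.34 (limma adjusted p = 0.00231) and Rrm1 by 1.43 ± 0.36 (limma adjusted p = 0.0114). The MCM genes did not pass: their differences ran from 0.42 for Mcm2 to 0.77 for Mcm7, and the interval of Mcm2 was -0.22 to 1.07. Rrm2 stood just outside the threshold at 1.33 ± 0.45 (limma adjusted p = 0.0523), and Pcna at 0.48 ± 0.17 (limma adjusted p = 0.0608).

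The mitosis genes that rose are given by role. Of the cyclins and their kinase, Cdk1 rose by 1.5, Ccna2 by 1.41 and Ccnb2 by 1.21. Of the kinetochore and checkpoint genes, Bub1 rose by 1.95 ± 0.33 (limma adjusted p = 0.000639), Cenpe, a kinetochore motor, by 1.69 and Cenpf by 1.22. Bub1 read 9.85, 9.89 and 9.58 on WT BMDC, 9.67, 8.96 and 9.63 on BRAF BMDC, and from 6.49 to 8.34 on 11 organ arrays, with 9.82 on BRAF liver replicate 3. Of the mitotic kinases, Plk1 rose by 1.70, Aurka by 1.30 and Aurkb by 1.16. Of the spindle genes, Kif20a rose by 1.73, Nusap1 by 1.48, Kif11 by 1.36, Tpx2 by 1.11 and Kif23 by 0.84. Cdc20 and Ube2c, which serve the anaphase-promoting complex, rose by 0.92 and 0.94, and Birc5 by 1.11. The markers Mki67 and Top2a rose by 1.18 ± 0.35 and 1.38 ± 0.41 (limma adjusted p = 0.0250 and 0.0260). Bub1b (0.94) and the transcription factor gene Foxm1 (0.87) did not pass, at adjusted p = 0.0534 and 0.0816.

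**Figure D5:**
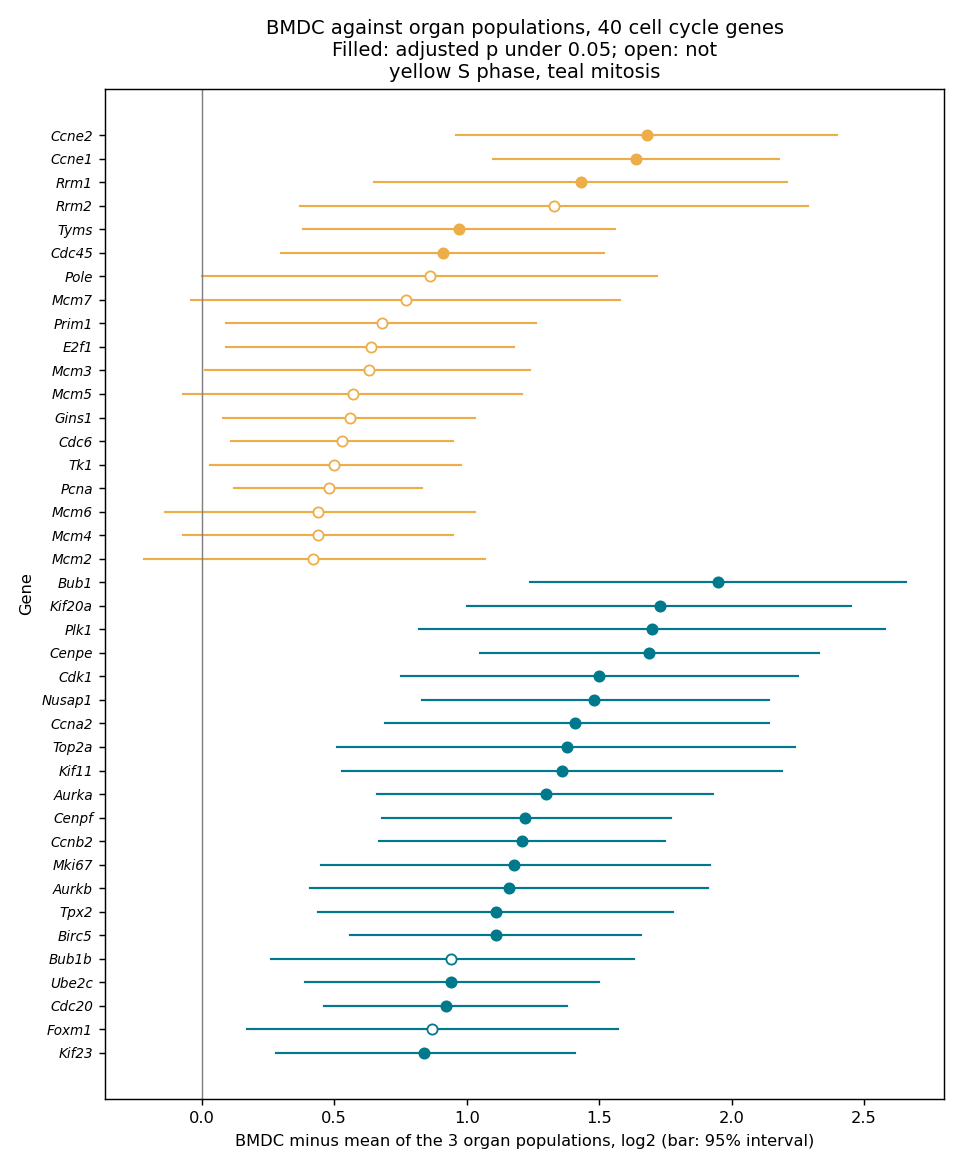
Points are the difference of each gene between BMDC and the mean of the 3 organ populations in log2, with the 95% interval of the limma fit, in yellow for S phase and teal for mitosis; filled points passed an adjusted p of 0.05. All 40 points lie above 0, with 5 of 19 S phase and 19 of 21 mitosis genes filled.

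The number of calls depended on single arrays. Beside the main share of 18.8% of all genes called in either direction, each count is given with the share under the same setting. Without BRAF liver CD11b+ replicate 3, all 40 genes were called higher, beside 21.5% of all genes, and with array weights 39, beside 42.1%. Without BRAF BMDC replicate 1 or replicate 3 the count was 15, beside 14.9% and 15.4%. With only the WT groups compared, 20 were called, beside 15.9%, of which 18 were among the 24. That fit still held all 18 arrays, so its SE pooled the spread of the BRAF groups too. In WT cells all 3 BMDC arrays lay above all 6 organ arrays for 17 S phase and 20 mitosis genes, 37 of 40, beside 14.9% of all genes; Mcm2, Mcm6 and Kif23 overlapped. No member had all 6 BMDC arrays above all 12 organ arrays, beside 1.44% of all genes. BRAF liver replicate 3 reached into the BMDC range. Over the other 11 organ arrays, 13 had (3 S phase and 10 mitosis genes), beside 2.57% of all genes.

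In WT cells, the median gap to BMDC ran in the same order in both phases. WT BMDC exceeded WT liver CD11b+ cells by a median of 1.27 in S phase and 1.82 in mitosis, WT lung CD11b+ cells by 0.83 and 1.52, and WT lung CD103+ cells by 0.66 and 1.18, each in 40 of 40 genes. These comparisons share the BMDC arrays. In BRAF cells the order was another: BMDC minus liver CD11b+ cells had medians of -0.02 and 0.62, with 29 of 40 genes positive, BMDC minus lung CD11b+ cells 0.52 and 1.12, and BMDC minus lung CD103+ cells 0.61 and 1.30, with 40 of 40 positive in both. Between organ populations no member was called: liver minus lung CD11b+ cells had medians of 0.12 and 0.16 and lung CD103+ minus lung CD11b+ cells 0.10 and 0.24 over both genotypes (limma, beside 2.12% and 5.64% of all genes), with 0 at an unadjusted p under 0.05, beside 20.4% and 13.9%. The sign of the liver minus lung medians turned with the arrays used. Without BRAF liver replicate 3 they were -0.43 and -0.56, without BRAF liver replicate 2 they were 0.76 and 0.79, and the S phase median was -0.31 with WT arrays alone.

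The marker lists moved between cultured and organ cells as well. The mean of the 17 dendritic cell markers ran from 8.64 to 9.31 on BMDC arrays and from 9.48 to 10.80 on organ arrays, with no overlap. The other lists overlapped or nearly so, at 7.96 to 8.28 against 6.53 to 9.62 for 14 macrophage markers, 5.89 to 6.60 against 5.60 to 8.07 for 13 neutrophil and precursor markers, 5.84 to 6.21 against 5.79 to 6.43 for 8 erythroid markers, 6.44 to 6.55 against 6.10 to 8.20 for 11 B and plasma cell markers, 5.11 to 5.92 against 5.29 to 7.12 for 12 T and NK cell markers, and 5.59 to 6.13 against 6.08 to 8.62 for 10 epithelial and hepatocyte markers. Their part in the difference of the cell cycle genes was not tested.

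Further genes of the cycle, outside the 41, were counted in the same way. In BMDC against organ cells, 13 of 44 further S phase genes and 44 of 59 further mitosis genes rose and none fell, beside 11.6% of all genes called higher, with medians of 0.52 and 1.07. The S phase genes with the smallest p were Rad51ap1 (1.32), Dbf4 (1.25), which activates the kinase that fires replication origins, Rfc3 (0.62), a clamp loader subunit, and Gins4 (0.80). The mitosis genes were Cdc25b (1.18), a phosphatase that activates Cdk1, Kif20b (1.32), Ndc80 (1.09), a kinetochore protein, and Hmmr (1.89).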

How the data were processed

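The authors deposited 1 linear intensity per probe set and array; their normalization and software are not given in the sources consulted. Array medians ran from 93.7 to 113.2. Of 24922 probe sets, 21425 had 1 gene symbol; the probe set with the highest mean stood for its gene. log2 was taken of the deposited intensity with no constant and no renormalization. Genes that exceeded the 30th percentile of the array's probe sets on 2 or more arrays (15365) were tested with limma 3.58.1 in R 4.3.3 as group means over all 18 arrays (10 residual degrees of freedom), with Benjamini-Hochberg adjustment over all genes. A call is an adjusted p under 0.05. The number of arrays limits the precision. Each SE pools the spread within all groups, whichever groups are compared.

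The members, gene lists and tests were chosen with earlier results of these data known. Members with the smallest p per phase in the genotype comparison of each population were given by array, with Mki67, Top2a, Mcm2, Pcna and Rrm2. Of the members called in BMDC against organ cells, only some were given by array. Alternatives were other normalizations, filters, probe set rules, eBayes settings, array weights and left-out arrays. The fit was tested on simulated data. Deviations of same-numbered BMDC arrays from their group means correlated at 0.469, -0.231 and -0.399. Deviations cancel out within a group, so these values cannot decide whether the numbers pair the arrays. Lung CD11b+ and CD103+ arrays of the same number correlated at 0.159 (WT) and 0.22 (BRAF). With so few arrays per lung group, both pairs of a genotype must give the same value. The BMDC and the lung arrays were also fitted with the replicate number as a block. Figures used Python 3.11.15 and matplotlib 3.10.9.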

Additional observations from a re-analysis of the deposited data

How the results depend on the processing

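Across the alternatives run, the medians of the 40 members kept their sign in BMDC (BRAF minus WT, -0.64 to -0.25) and in BMDC against organ populations (0.85 to 1.31). Array weights called 2 members in BMDC, beside 10.8% of all genes, and 39 in BMDC against organ populations, beside 42.1%. Leaving out 1 array at a time gave 0 to 23 called members and medians of -0.42 to 2.09 in liver, medians of -1.29 to 0.05 in lung CD103+ cells, 15 to 40 called in BMDC against organ populations, 0 to 1 called in liver against lung CD11b+ cells, 0 to 2 in the test of the BRAF effect between populations, and 0 to 27 called with medians of -2.62 to -0.15 in the BMDC minus liver effect, whose mitosis median turned to 0.05 without BRAF liver replicate 3. Where this left 1 array in a group, that array was assumed to vary like the other groups. BRAF liver CD11b+ replicate 3 and BRAF lung CD103+ replicate 1 were also left out together, a choice made after seeing the data. The BMDC minus liver effect then had a median of -0.15, with a mitosis median of 0.05. The causes were not tested beyond which array was left out. Counts of called members from these fits are not given here, since several left 1 array in a group. With replicate number as a block, 0 members were called in BMDC (median -0.49), in lung CD103+ against CD11b+ (0.19) and in the mean effect (0.05), so the block changed no call, though it turned the sign of the small mean effect. Liver and lung genotype groups share 1 number, so no paired fit was made there. Arrays report no sequencing depth; all 40 members lay above the 30th percentile on at least 2 arrays, and 38 to 40 of them did on each array.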

Other observations

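The G1 genes that decide entry into the cycle, outside the 41, were less uniform. Of 18 such genes, E2f3, an activating E2F gene, rose in BMDC against organ populations by 0.62 ± 0.16 (limma adjusted p = 0.0108), and Ccnd1, the gene of cyclin D1 and a known target of MAP kinase signalling, fell by 0.61 (-0.61 ± 0.19, limma adjusted p = 0.0306). In that comparison 1 of 18 was called higher and 1 lower, beside 11.6% and 7.11% of all genes. These calls did not exceed the background. None of the 18 was called in any genotype contrast. In BMDC, BRAF minus WT was positive for 10 of them and negative for 8, with a median of 0.15 and a range from -0.73 to 0.63. In BMDC, Ccnd1 read 9.76, 9.90 and 9.79 on WT and 10.70, 9.79 and 10.86 on BRAF replicates 1 to 3, a difference of 0.63 (limma adjusted p = 0.737). Ccnd2 read 10.49, 10.52 and 10.18 on WT and 11.58, 9.54 and 11.65 on BRAF. Both D-type cyclin genes were higher on BRAF replicates 1 and 3 than on every WT array, and lower or within WT on replicate 2, while the S phase means of the same BRAF arrays lay below WT. These values were singled out after they were seen.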
